A study of Mus musculus with 91 samples.

Results

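The genes described here supply or use glutathione in the fetal mouse gonad: the cystine carrier *Slc7a11*, both subunits of the enzyme that makes the glutathione precursor (*Gclc* and *Gclm*), 3 membrane-bound transferases (*Mgst1*, *Mgst2* and *Mgst3*), 2 soluble alpha-class transferases (*Gsta3* and *Gsta4*) and the secreted peroxidase *Gpx3*. These 9 genes, of 19938 genes that a transcript cluster names alone, were chosen by symbol, and each has exactly 1 such cluster. They were selected on earlier results of the same arrays in which *Slc7a11* (XX against XY supporting cells at E11.5) and *Mgst2* (XY against XX germ cells at E12.5) stood out, so both comparisons, and the comparisons between lineages of these genes, are given as values without a test. Which earlier results led to the other members is not recorded, and the p-values below are a description of these arrays and no independent support.

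Fetal gonad cells were sorted by a fluorescent reporter and their RNA was measured on Affymetrix gene arrays on 3 days of development (E11.5, then E12.5, then E13.5), over which XX and XY gonads part. Supporting, germ and endothelial cells make 18 groups of 3 arrays, and another 18 arrays hold *αSma-EYFP* cells, also 3 for each sex and stage. The study proposes that, at least early on, *αSma-EYFP* cells are a mix that includes supporting cells, and it kept them out of its main analysis. Values are log2 intensities, which were set against each other between groups for 1 gene and never between genes.

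Supporting cells, which become Sertoli cells in XY and granulosa cells in XX gonads, carried *Sry-EGFP*, a transgene in which *Sry* sequences drive EGFP without making SRY protein. From E12.5 on, XY supporting cells were sorted with *Sox9-ECFP* instead, so that their reporter changed with stage. Both lines, and the germ cell line *Oct4-EGFP*, came from matings of CD-1 with C57BL/6J. Endothelial cells were *Flk1-mCherry* cells on CD-1, in which *Kdr* sequences drive the reporter, and *αSma-EYFP* cells, in which *Acta2* sequences do, came from FVB per the labels and from a line of FVB mixed with CD-1 per the methods. The gonads of one or more litters were pooled by sex for a sort. Part of the mesonephros was kept for *Flk1-mCherry* cells at E11.5, and it was left on the gonad for *Oct4-EGFP* cells, at E11.5 per the labels and with no stage named in the methods. Lineage and reporter cannot be told apart in this design, nor can strain where it differs between lineages. At E12.5 and E13.5 XX supporting cells carried *Sry-EGFP* and XY supporting cells *Sox9-ECFP*, so sex and reporter cannot be told apart there. In sorted bulk cells more cells of a kind and more RNA per cell cannot be told apart either.

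Glutathione is a tripeptide of glutamate, cysteine and glycine and the main soluble thiol of animal cells. Cystine enters through *Slc7a11*, which trades it for glutamate and is anchored by its heavy chain *Slc3a2*, and glutamate-cysteine ligase joins glutamate to cysteine in the step that limits synthesis. Transferases then couple glutathione to reactive molecules, such as the aldehydes of lipid peroxidation, peroxidases spend it on peroxides, and *Gsr* reduces the oxidised form. The transcription factor *Nfe2l2* is known to drive *Gclc*, *Gclm*, *Slc7a11* and many transferases through the antioxidant response element, whose core reads TGACNNNGC.

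RefSeq promoters of the build GRCm38.p6, from 250 bases before to 50 bases after the start of transcription, were at hand for 7 of the 9 genes, with 2 for *Mgst1*, and none for *Gsta4* and *Gclc*. The core TGACNNNGC, searched on both strands, lay once each in the promoters of *Gclm*, *Gsta3* and *Mgst1* (at the upstream start), and 12.4% of all 32851 promoters of 300 bases held it. It was not in these windows of *Mgst2*, *Mgst3*, *Slc7a11*, *Gpx3* or the downstream start of *Mgst1*, which says only that these letters are not there. The promoters with a match are printed with the core in capitals, and those of *Slc7a11* and *Mgst2*, the genes whose sex differences led to the choice, follow for comparison. The match begins 134 bases before the start in *Gclm* and 56 in *Mgst1*, both on the reverse strand, and 121 bases before the start in *Gsta3* on the forward strand. The windows are chr3:122245307-122245606 (plus strand) for *Gclm*, chr1:21240335-21240634 (plus) for *Gsta3*, chr6:138140277-138140576 (plus) for *Mgst1*, chr3:50443564-50443863 (minus) for *Slc7a11* and chr3:51660929-51661228 (plus) for *Mgst2*. Those of *Slc7a11* and *Mgst2* lie inside the annotated genes (chr3:50364936-50499087 and chr3:51636912-51682675) and not at the outer end where these genes begin.
Gclm: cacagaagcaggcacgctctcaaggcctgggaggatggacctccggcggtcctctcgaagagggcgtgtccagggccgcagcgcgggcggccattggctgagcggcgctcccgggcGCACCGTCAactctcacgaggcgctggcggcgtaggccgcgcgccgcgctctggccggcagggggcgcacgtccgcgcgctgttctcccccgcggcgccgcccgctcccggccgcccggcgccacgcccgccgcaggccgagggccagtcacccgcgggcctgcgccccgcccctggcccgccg
Gsta3: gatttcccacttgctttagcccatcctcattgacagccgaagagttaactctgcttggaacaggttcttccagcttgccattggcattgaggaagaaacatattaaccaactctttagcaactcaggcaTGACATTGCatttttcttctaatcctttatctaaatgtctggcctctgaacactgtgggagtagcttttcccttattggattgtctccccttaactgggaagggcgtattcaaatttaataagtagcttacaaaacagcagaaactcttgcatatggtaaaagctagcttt
Mgst1: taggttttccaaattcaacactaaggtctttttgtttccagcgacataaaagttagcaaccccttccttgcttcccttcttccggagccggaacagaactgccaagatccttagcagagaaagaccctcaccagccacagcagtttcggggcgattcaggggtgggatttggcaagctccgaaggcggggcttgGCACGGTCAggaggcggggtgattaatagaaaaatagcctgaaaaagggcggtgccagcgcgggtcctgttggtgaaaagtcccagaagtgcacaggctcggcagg
Slc7a11: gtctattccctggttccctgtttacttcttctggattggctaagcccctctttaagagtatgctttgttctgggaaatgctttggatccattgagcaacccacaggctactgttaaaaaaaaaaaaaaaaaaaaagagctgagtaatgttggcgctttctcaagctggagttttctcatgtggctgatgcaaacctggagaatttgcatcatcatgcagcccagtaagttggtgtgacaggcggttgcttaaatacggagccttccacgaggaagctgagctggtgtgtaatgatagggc
Mgst2: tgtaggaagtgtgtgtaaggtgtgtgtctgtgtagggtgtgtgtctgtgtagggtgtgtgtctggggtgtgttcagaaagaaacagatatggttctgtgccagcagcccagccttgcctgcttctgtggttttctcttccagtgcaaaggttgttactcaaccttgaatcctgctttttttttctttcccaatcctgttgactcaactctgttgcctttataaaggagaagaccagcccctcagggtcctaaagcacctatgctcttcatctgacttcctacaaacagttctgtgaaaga

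The labels were borne out by Y-linked genes, whose mean was at most 6.43 on XX arrays and at least 7.45 on XY arrays. Endothelial markers averaged 10.0 to 10.9 in *Flk1-mCherry* cells and germ markers 9.96 to 10.4 in *Oct4-EGFP* cells. Markers of XX supporting cells averaged 9.04 to 9.53 in these cells, and markers of XY supporting cells 8.75 to 10.3 in theirs. In *αSma-EYFP* cells the former averaged 8.57 to 8.83 in XX at E12.5 and E13.5. The latter averaged 7.07 to 8.12 in XY *αSma-EYFP* cells at E11.5 and E12.5. The fetal Leydig markers *Cyp11a1*, *Cyp17a1*, *Star* and *Hsd3b1* did not keep to 1 sort. Their mean was 8.15 to 8.47 in XY *Flk1-mCherry* cells at E12.5 and 10.5 to 10.9 at E13.5, against 5.37 to 5.66 in XX. From staining of XY gonads at E13.5, the study concluded that the *Flk1-mCherry* transgene leaked into some Leydig cells. It could not tell whether sex-specific expression in this sort after E11.5 came from endothelial cells. Array 2 of XY *Flk1-mCherry* cells at E11.5 was the least like its group, with a mean correlation of 0.944.

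Of the 9 genes, 7 were called between the sexes in at least 1 lineage and stage, most often with the XY level higher. A difference was called when the limma p-value, adjusted by Benjamini-Hochberg over all 16820 tested clusters, was under 0.05 and the fold was over 1.5. Leaving out the comparisons used in choosing and *Slc7a11* in supporting cells, 18 of 61 member tests (29.5%) were called over 7 sex comparisons, 15 of them higher in XY cells and 3 lower, beside 7.22% of all cluster tests in the same comparisons (0.131% to 16.6% in each). All 9 genes passed the limit on low values (a log2 value over 6 in at least 2 of 3 arrays of some group), but *Slc7a11* passed only through XX supporting cells and so had to differ, and its values there are given without a test.

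**Figure D1:**
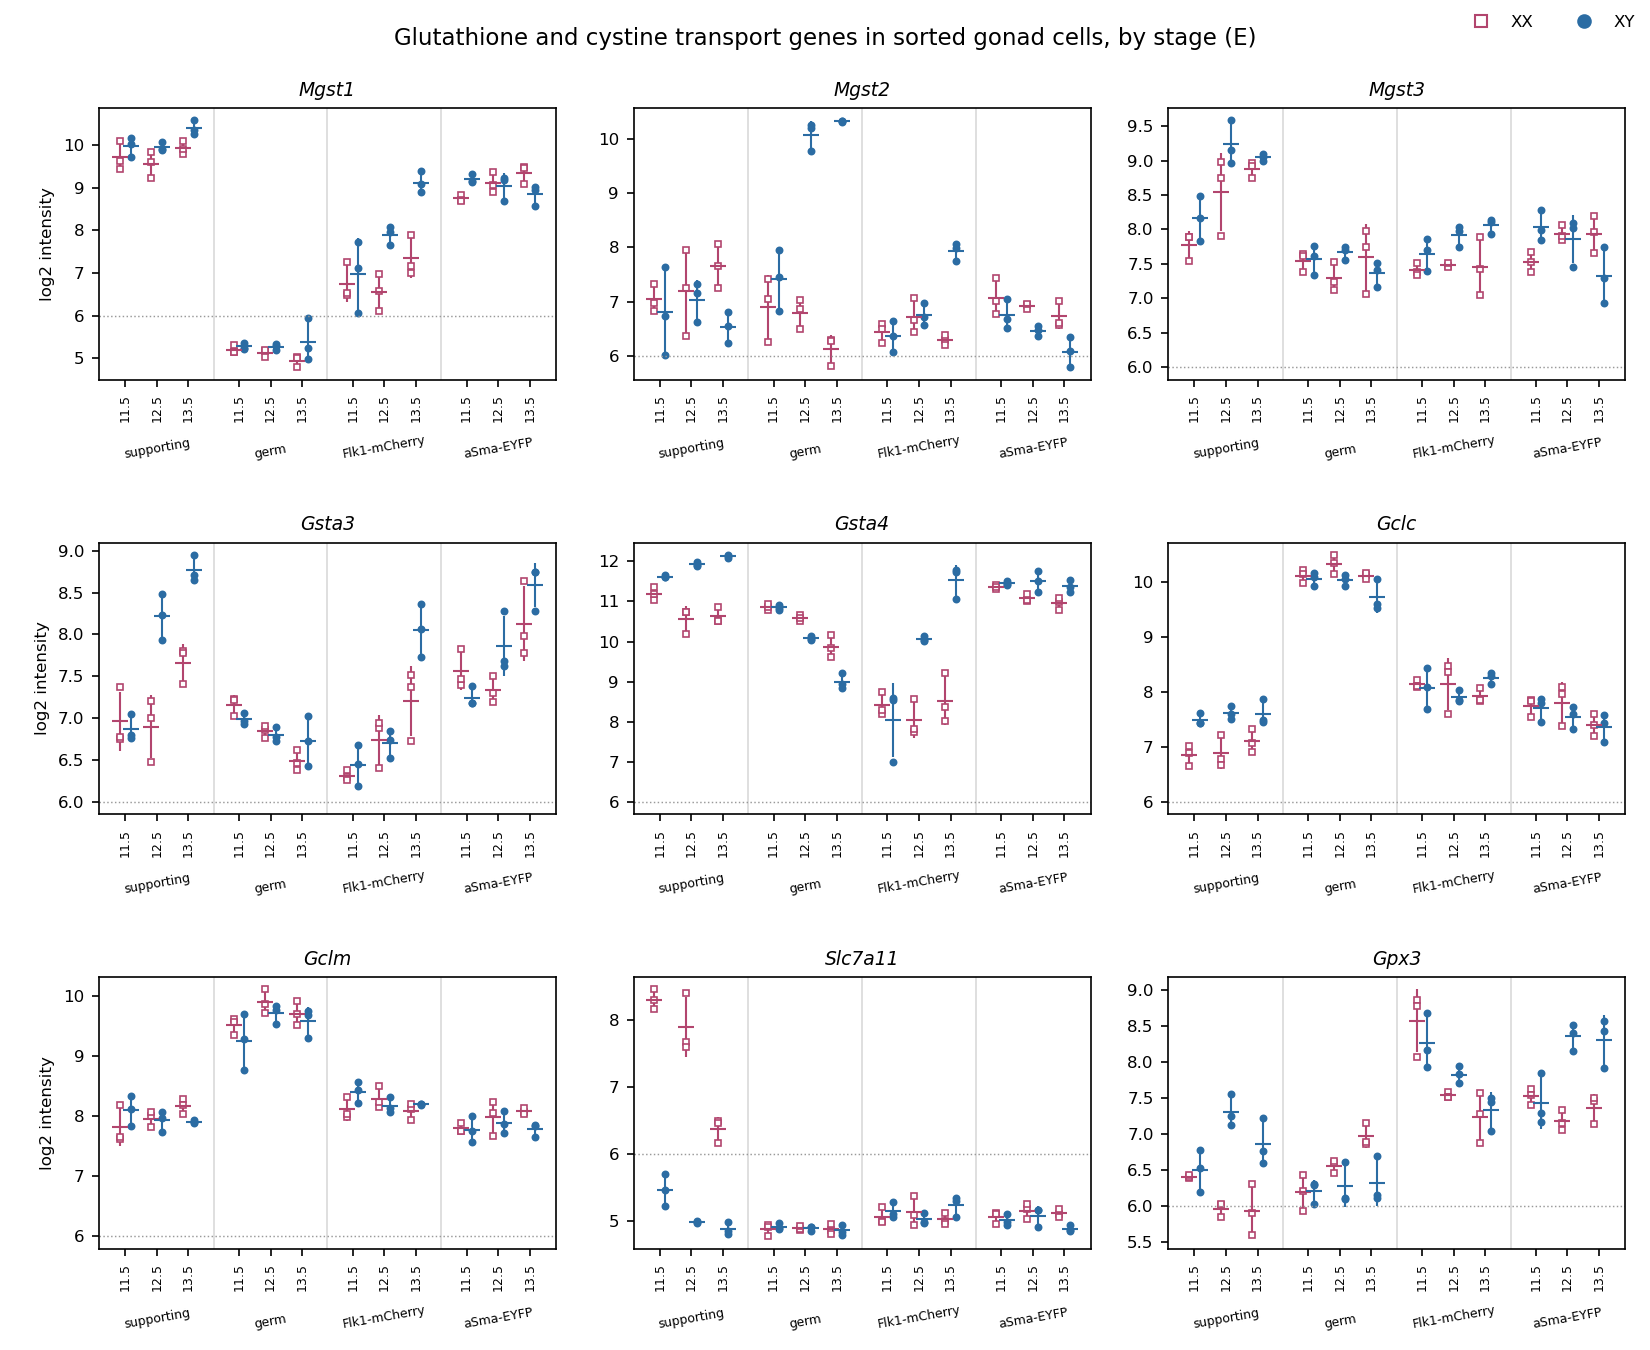
Log2 intensity (vertical axis) of the 9 genes on each of 72 arrays, by sorted population and stage (horizontal axis); open squares are XX and filled circles XY arrays, with dashes at the group mean, bars for 1 SD (n = 3) and a dotted line at the low-value limit of 6. *Slc7a11* is above 6 in XX supporting cells on all 9 arrays, *Mgst2* near 10 in XY germ cells at E12.5 and E13.5, and *Gclc* and *Gclm* are highest in germ cells.

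The share of calls differed by lineage. In supporting cells 2 of the 9 genes were called at E11.5, where 6.16% of all clusters were. Of the 8 genes other than *Slc7a11*, 5 were called at E12.5 (16.6% of all) and 4 at E13.5 (16% of all). At E12.5 and E13.5 the sexes also differed in reporter. In germ cells the numbers were 0 at E11.5 (0.131% of all), 1 at E12.5 (2.66%) and 3 at E13.5 (11.8%). In *Flk1-mCherry* cells they were 0 (0.589% of all), 2 (1.86%) and 4 (3.53%). At E11.5 in germ and *Flk1-mCherry* cells, where limma called none, 0 and 0 of the 9 had an unadjusted p under 0.05. Nothing is read from the counts in supporting cells at E11.5 and germ cells at E12.5, which were used in choosing.

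**Figure D2:**
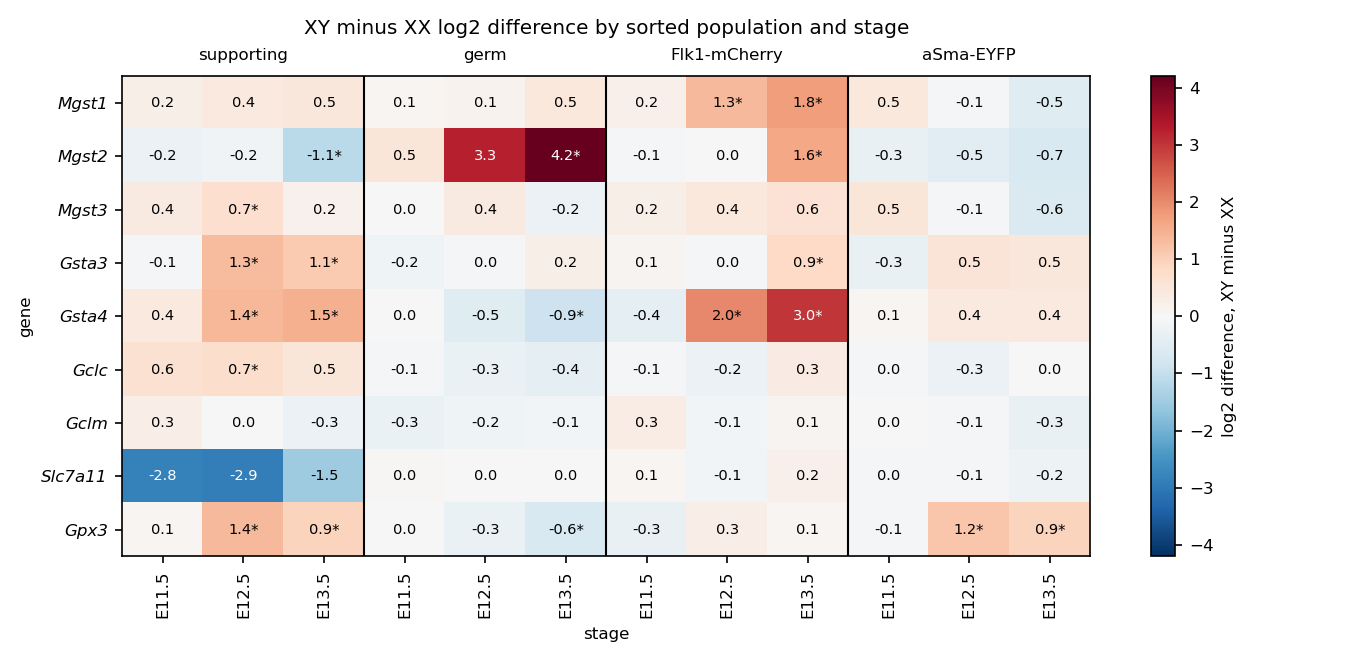
Difference XY minus XX in log2 intensity (colour and printed value) for each gene (rows) in 4 sorted populations at 3 stages (columns), n = 3 arrays a group; a star marks an adjusted p under 0.05 with a fold over 1.5. No star is given in the columns of supporting cells at E11.5 and germ cells at E12.5, which were used in choosing the genes, nor to *Slc7a11* in supporting cells. *Slc7a11* is lower in XY supporting cells at all 3 stages, and *Mgst2* reaches 4.19 in germ cells at E13.5.

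*Slc7a11*, the cystine carrier, was a transcript of XX supporting cells. Their 3 arrays read 8.17, 8.46 and 8.29 at E11.5, 7.68, 8.41 and 7.60 at E12.5 and 6.17, 6.49 and 6.47 at E13.5. XY supporting cells read 5.47, 5.70 and 5.22 at E11.5, 5.00, 4.98 and 4.97 at E12.5 and 4.98, 4.84 and 4.80 at E13.5. No XX array overlapped with an XY array at any stage, and the XX level at E13.5 lay below that of both earlier stages. XY minus XX was -2.84 on the log2 scale at E11.5, the difference that chose the gene. It was 7.52-fold lower at E12.5 (log2 difference -2.91 ± 0.14 SE) and 2.83-fold lower at E13.5 (-1.5 ± 0.14). All XY levels are under the limit of 6, so these folds compare a measured level with values near the floor of the arrays.

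Between E11.5 and E13.5 the level in XX supporting cells changed by -1.93 on the log2 scale and that in XY supporting cells by -0.59, the latter with both levels under 6. Both are given without a test because they use the E11.5 arrays that chose the gene. In germ, *Flk1-mCherry* and *αSma-EYFP* cells every group mean was between 4.86 and 5.24. *Slc3a2*, the heavy chain that *Slc7a11* shares with other carriers, was present in every group, with means from 8.47 to 10.0, and differed by sex only in germ cells of the last stage (XY 9.33 against XX 8.47, 1.81-fold, adjusted p = 6.7e-04). There the XX level had fallen 2.45-fold from 9.77 at E11.5 (adjusted p = 4.8e-07).

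**Figure D3:**
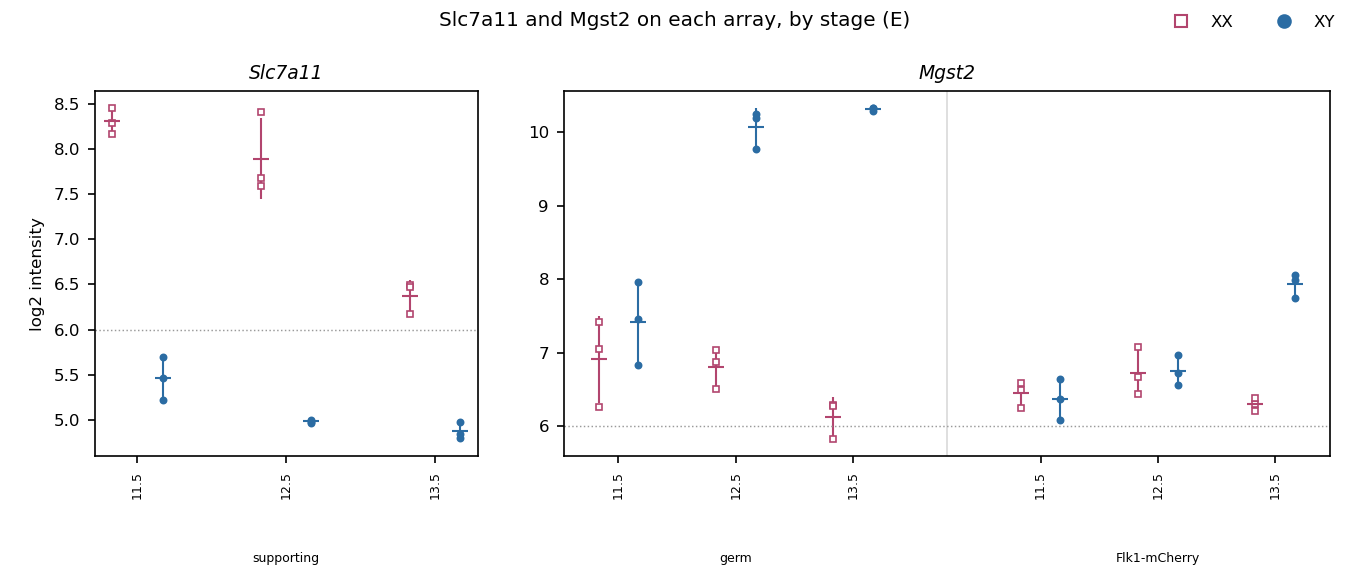
Log2 intensity (vertical axis) of *Slc7a11* in supporting cells and of *Mgst2* in germ and *Flk1-mCherry* cells by stage (horizontal axis); squares are XX and circles XY arrays, with dashes at the mean, bars for 1 SD (n = 3) and a dotted line at 6. *Slc7a11* falls in XX supporting cells from a mean of 8.31 to 6.38, and *Mgst2* in XY germ cells rises from 7.42 to 10.3.

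*Gclc* and *Gclm*, the catalytic and the modifier subunit of glutamate-cysteine ligase, were highest in germ cells of both sexes at every stage. *Gclc* group means were 9.72 to 10.3 in germ cells, 7.90 to 8.26 in *Flk1-mCherry* cells and 6.85 to 7.62 in supporting cells. *Gclm* group means were 9.25 to 9.90 in germ cells and 7.82 to 8.41 in supporting and *Flk1-mCherry* cells. No germ cell array overlapped with an array of another lineage for either gene. Averaged over sexes and stages, germ cells were 5.50-fold higher than the other lineages for *Gclc* (log2 difference 2.46 ± 0.06, adjusted p = 1.1e-39) and 3.09-fold higher for *Gclm* (1.63 ± 0.06, adjusted p = 9.3e-33). The germ cell group was also the only *Oct4-EGFP* group. *Flk1-mCherry* cells came next for *Gclc* and supporting cells last, and the arrays of these lineages overlap.

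**Figure D4:**
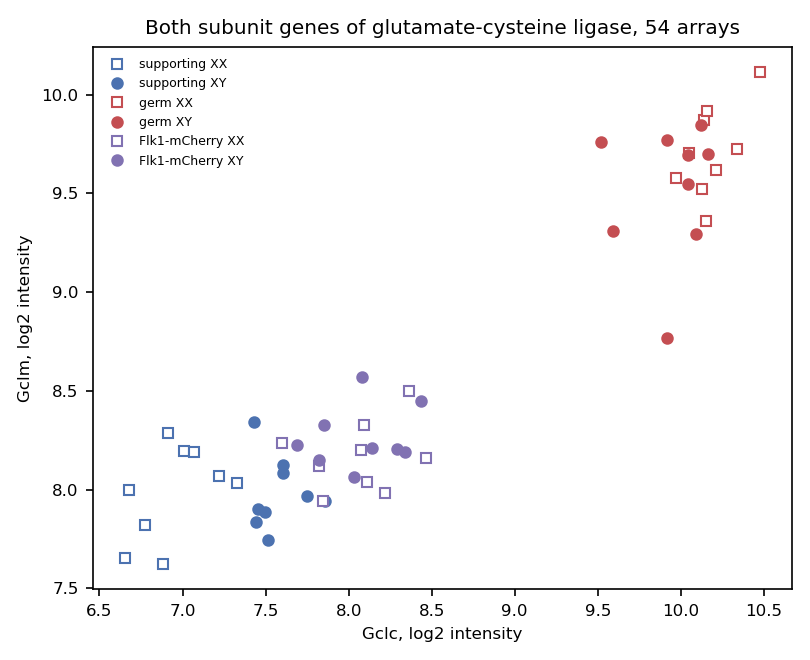
*Gclm* (vertical axis) against *Gclc* (horizontal axis), both in log2 intensity, on the 54 arrays of supporting, germ and *Flk1-mCherry* cells; open squares are XX and filled circles XY arrays, coloured by lineage. The 18 germ cell arrays lie apart at the top right, and over the 24 group means of the fit the correlation of both genes was 0.951, which largely reflects this gap.

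The ligase subunits differed little between the sexes, and neither was called in germ cells at E11.5 or E13.5. At E13.5 the XY minus XX difference in germ cells was -0.40 for *Gclc* (95% interval -0.76 to -0.03, adjusted p = 0.12) and -0.13 for *Gclm* (-0.46 to 0.21). In supporting cells only *Gclc* was higher in XY cells. Its XX arrays read 6.77, 6.68 and 7.22 and its XY arrays 7.75, 7.51 and 7.61 at E12.5. Every XY array was above every XX array, by 1.66-fold in the mean (log2 difference 0.73 ± 0.18, adjusted p = 0.0010). At E11.5 the means were 6.85 ± 0.18 in XX and 7.49 ± 0.10 in XY (SD, n = 3), and at E13.5 the difference of 0.50 had an adjusted p of 0.029 but a fold of 1.41. *Gclm* differed by -0.03 at E12.5 (95% interval -0.37 to 0.30) and by -0.26 at E13.5 (-0.60 to 0.07).

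Among the enzymes next to the ligase, *Gsr*, which reduces oxidised glutathione, was likewise highest in germ cells, 2.31-fold above the other lineages (adjusted p = 1.1e-34). Its germ cell level fell over the 3 days, 2.10-fold in XX (from 9.51 to 8.44, adjusted p = 4.4e-11) and 1.78-fold in XY (from 9.56 to 8.72, adjusted p = 5.7e-08). In supporting cells *Gsr* was 1.60-fold higher in XY at E12.5 (8.41 against 7.74, adjusted p = 2.6e-06). *Gss*, which adds the glycine, had group means between 7.50 and 8.18 and *Chac1*, which degrades glutathione, between 6.49 and 6.88, and neither was called in any comparison. *Ggt1* was not analysed here.

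*Mgst1*, a transferase of the endoplasmic reticulum and the outer mitochondrial membrane, was a somatic transcript. Group means were 9.55 to 10.4 in supporting cells, 8.75 to 9.35 in *αSma-EYFP* cells, 6.55 to 9.12 in *Flk1-mCherry* cells and 4.94 to 5.39 in germ cells. No germ cell array reached the limit of 6, and germ cells were 13.6-fold below the mean of the other lineages (log2 difference -3.76 ± 0.09, adjusted p = 4.5e-41). Supporting cells were 5.82-fold above the others (adjusted p = 2.8e-32). *Mgst1* was called between the sexes only in *Flk1-mCherry* cells. In supporting cells the XY minus XX difference was 0.41 at E12.5 (95% interval -0.10 to 0.93) and 0.47 at E13.5 (-0.05 to 0.98).

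*Mgst2*, a membrane-bound transferase that can also make leukotriene C4, was the gene with the widest sex difference in germ cells. XX germ cells read 7.05, 7.41 and 6.26 at E11.5, 6.5, 6.87 and 7.03 at E12.5 and 6.29, 6.27 and 5.82 at E13.5. XY germ cells read 7.96, 7.46 and 6.84 at E11.5, 10.20, 10.24 and 9.78 at E12.5 and 10.33, 10.30 and 10.33 at E13.5. The sexes overlap at E11.5 and lie far apart at both later stages. The E12.5 difference of 3.27, which chose the gene, is given without a test. At E13.5, outside the comparison that chose the gene, *Mgst2* was 18.3-fold higher in XY germ cells (log2 difference 4.19 ± 0.32, adjusted p = 7.5e-16). In XY germ cells it rose 7.47-fold from E11.5 to E13.5 (log2 difference 2.90 ± 0.32, adjusted p = 1.8e-10). In XX germ cells the difference over the same days was -0.78 (adjusted p = 0.063), so that the sex difference changed by 3.68 (95% interval 2.78 to 4.58, adjusted p = 1.4e-08). At E11.5 the sex difference was 0.51 (95% interval -0.12 to 1.15).

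Outside germ cells *Mgst2* ran the other way in supporting cells at the last stage. XX arrays read 8.06, 7.67 and 7.26 and XY arrays 6.81, 6.25 and 6.55 at E13.5. The groups do not overlap, and XY cells were 2.18-fold lower (log2 difference -1.13 ± 0.32, adjusted p = 0.0044). At E11.5 and E12.5 the supporting differences were -0.24 and -0.16.

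*Mgst3*, the remaining microsomal transferase, was highest in supporting cells when averaged over sexes and stages. In these cells it rose from E11.5 to E13.5 in both sexes. XX supporting cells read 7.89, 7.89 and 7.54 at E11.5 and 8.97, 8.93 and 8.74 at E13.5, a rise of 2.15-fold (log2 difference 1.11 ± 0.22, adjusted p = 1.6e-04). XY supporting cells read 8.16, 7.83 and 8.48 at E11.5 and 9.05, 9.10 and 9.0 at E13.5, a rise of 1.85-fold (0.89 ± 0.22, adjusted p = 0.0017). Neither pair of groups overlaps. Supporting cells were 1.95-fold above the other lineages (adjusted p = 3.4e-17). Group means lay between 7.30 and 8.06 in germ and *Flk1-mCherry* cells and between 7.33 and 8.04 in *αSma-EYFP* cells. That of XX supporting cells at E11.5 was 7.77, and arrays of supporting cells overlap with those of the other lineages. At E12.5 the XY level was 1.61-fold higher (log2 difference 0.69, adjusted p = 0.012), but the arrays overlap and the call rested on single arrays: it was 0.37 without XX array 1 (adjusted p = 0.25) and 0.52 without XY array 3 (adjusted p = 0.11).

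*Gsta4*, which conjugates hydroxynonenal from lipid peroxidation, parted between the sexes in supporting, germ and *Flk1-mCherry* cells. Its XY level was the higher one in supporting and *Flk1-mCherry* cells and the lower one in germ cells. XX supporting cells read 11.03, 11.19 and 11.37 at E11.5, 10.18, 10.73 and 10.75 at E12.5 and 10.86, 10.51 and 10.52 at E13.5. XY supporting cells read 11.60, 11.65 and 11.61, then 11.91, 11.89 and 11.99, then 12.14, 12.15 and 12.09. The XY arrays were above the XX arrays at each stage. XY cells were 2.60-fold higher at E12.5 (log2 difference 1.38 ± 0.23, adjusted p = 3.5e-06) and 2.82-fold higher at E13.5 (1.5 ± 0.23, adjusted p = 6.5e-07). The change of this difference between E11.5 and E13.5 was 1.07 (adjusted p = 0.021), and its call ended without array 3 of XX at E11.5 (0.99, adjusted p = 0.057) or array 2 of XX at E13.5 (1.02, adjusted p = 0.051). Over these days *Gsta4* changed by -0.57 in XX and by 0.51 in XY supporting cells, and neither change was called (adjusted p = 0.11 and 0.11).

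In germ cells *Gsta4* fell with stage in both sexes. XX germ cells read 10.79, 10.86 and 10.93 at E11.5 and 10.17, 9.84 and 9.61 at E13.5 (1.98-fold lower, adjusted p = 8.4e-04). XY germ cells read 10.84, 10.91 and 10.80 at E11.5 and 9.22, 8.94 and 8.83 at E13.5 (3.62-fold lower, adjusted p = 1.0e-08). At E13.5 the XY level was 1.84-fold below XX (log2 difference -0.88 ± 0.23, adjusted p = 0.0038), with no overlap, and the change of the sex difference from E11.5, -0.87, had an adjusted p of 0.097.

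*Gsta3*, the other alpha-class transferase, had means of 6.96 ± 0.35 in XX and 6.87 ± 0.15 in XY supporting cells before they parted (E11.5, SD, n = 3). At E12.5 XX cells read 6.48, 7.01 and 7.21 and XY cells 8.24, 7.93 and 8.48, and at E13.5 XX cells read 7.80, 7.41 and 7.78 and XY cells 8.65, 8.71 and 8.95. XY arrays were above XX arrays at both stages, 2.49-fold in the mean at E12.5 (adjusted p = 1.5e-05) and 2.15-fold at E13.5 (adjusted p = 2.4e-04). The difference grew by 1.20 between E11.5 and E13.5 (adjusted p = 0.011), or by 1.00 without array 1 of XX at E11.5 (adjusted p = 0.057). Over these days *Gsta3* rose 3.73-fold in XY supporting cells (log2 difference 1.90 ± 0.24, adjusted p = 1.1e-08).

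In germ cells *Gsta3* was near 7 at E11.5 and was 6.49 in XX and 6.73 in XY at E13.5. The lower XX level (-0.67, adjusted p = 0.034) was not called without array 2 or 3 of E11.5 or array 1 or 2 of E13.5, where it was between -0.65 and -0.61.

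*Gpx3*, a peroxidase that cells secrete, differed between the sexes in *αSma-EYFP*, supporting and germ cells. The *αSma-EYFP* arrays read 7.15, 7.34 and 7.05 in XX and 8.16, 8.41 and 8.51 in XY at E12.5, and 7.13, 7.46 and 7.50 in XX and 7.92, 8.44 and 8.57 in XY at E13.5. No array overlapped between the sexes, and XY cells were 2.26-fold higher at E12.5 (adjusted p = 1.4e-05) and 1.93-fold at E13.5 (adjusted p = 5.7e-04). *Gpx3* was the only one of the 9 genes called there: 0 at E11.5 (0.231% of all clusters, and 1 of 9 with an unadjusted p under 0.05), 1 at E12.5 (3.55%) and 1 at E13.5 (3.8%). *Gsta3* and *Gsta4* differed by 0.53 and 0.42 at E12.5 (95% intervals 0.05 to 1.01 and -0.01 to 0.85, adjusted p = 0.30 and 0.42). The Leydig markers averaged 8.32 to 8.54 in XY and 5.66 to 5.79 in XX *αSma-EYFP* cells at E13.5, but 5.99 to 7.39 against 5.80 to 5.93 at E12.5, and their part in the *Gpx3* difference was not tested.

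In supporting cells *Gpx3* was 6.40 ± 0.02 in XX and 6.5 ± 0.29 in XY at E11.5 (SD, n = 3). XX cells then read 5.85, 6.01 and 6.02 at E12.5 and 5.90, 6.31 and 5.59 at E13.5, at or near the limit of 6, and XY cells 7.13, 7.55 and 7.25 and then 6.6, 7.22 and 6.76. XY arrays were above all XX arrays of their stage, 2.55-fold at E12.5 (adjusted p = 2.4e-07) and 1.90-fold at E13.5 (adjusted p = 2.3e-04). In germ cells the order was the other way at E13.5: XX arrays read 6.86, 6.89 and 7.15 and XY arrays 6.70, 6.16 and 6.11, a 1.57-fold lower XY level (log2 difference -0.65 ± 0.20, adjusted p = 0.015). Without XX array 3, XY array 2 or XY array 3 it was -0.56, -0.56 and -0.54 and was not called. XX germ cells rose 1.72-fold from E11.5 (adjusted p = 0.0022). *Flk1-mCherry* cells fell over the same days, 2.52-fold in XX (adjusted p = 5.2e-06) and 1.91-fold in XY (adjusted p = 7.4e-04), and their E11.5 sort is the one that included part of the mesonephros. Leydig markers averaged 6.04 to 6.20 in XY and 5.70 to 5.73 in XX supporting cells at E12.5. At E13.5 they averaged 6.92 to 7.27 in XY and 5.72 to 5.84 in XX. Their part in the *Gpx3* differences of supporting cells was not tested.

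XY *Flk1-mCherry* cells, which per the study include Leydig cells after E11.5, gained 4 of these genes. *Gsta4* read 8.19, 8.74 and 8.29 in XX and 8.59, 6.99 and 8.55 in XY at E11.5, 8.56, 7.74 and 7.81 against 10.15, 10.01 and 10.04 at E12.5, and 8.36, 8.02 and 9.2 against 11.78, 11.72 and 11.07 at E13.5. The sexes overlap at E11.5 only, and the low XY value there is the array that stood apart from its group. XY cells were 4.08-fold higher at E12.5 (log2 difference 2.03 ± 0.23, adjusted p = 6.9e-09) and 7.98-fold at E13.5 (3.0 ± 0.23, adjusted p = 4.7e-15). The difference changed by 3.36 between E11.5 and E13.5 (adjusted p = 3.8e-11).

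*Mgst1* read 6.57, 6.98 and 6.10 in XX and 8.08, 7.97 and 7.65 in XY *Flk1-mCherry* cells at E12.5, and 7.17, 7.01 and 7.89 against 9.39, 9.08 and 8.89 at E13.5. The sexes do not overlap at either stage, and XY cells were 2.54-fold (adjusted p = 5.1e-04) and 3.40-fold higher (adjusted p = 9.5e-07). For *Mgst2* the arrays read 6.31, 6.21 and 6.39 in XX and 7.99, 7.75 and 8.06 in XY at E13.5, again with no overlap (3.10-fold, adjusted p = 2.4e-04). *Gsta3* was 7.51, 6.72 and 7.37 in XX and 8.37, 8.06 and 7.73 in XY at E13.5 (1.81-fold, adjusted p = 0.022). Its log2 difference of 0.85 was 0.61, 0.70 and 0.85 without XX array 2, XY array 1 or XY array 2 (adjusted p = 0.25, 0.19 and 0.070). *Mgst3* differed by 0.61 (95% interval 0.17 to 1.05, adjusted p = 0.11), and *Gclc*, *Gclm*, *Slc7a11* and *Gpx3* were not called.

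Markers of fetal Leydig cells rose with these gains (1 of 4 over 6 in XY *Flk1-mCherry* cells at E11.5 and 4 of 4 at both later stages, against 1 of 4 in XX throughout), and the part of Leydig cells in the gains was not tested. Germ cell markers in E13.5 *Flk1-mCherry* cells averaged 6.99 to 7.18 for XY and 6.66 to 6.97 for XX, with 4 of 6 markers over 6 in each. Among them *Dppa3* was 9.38 in XY and 7.71 in XX, while *Ddx4* was 5.82 and 5.96. Their part in the *Mgst2* difference was not tested.

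**Figure D5:**
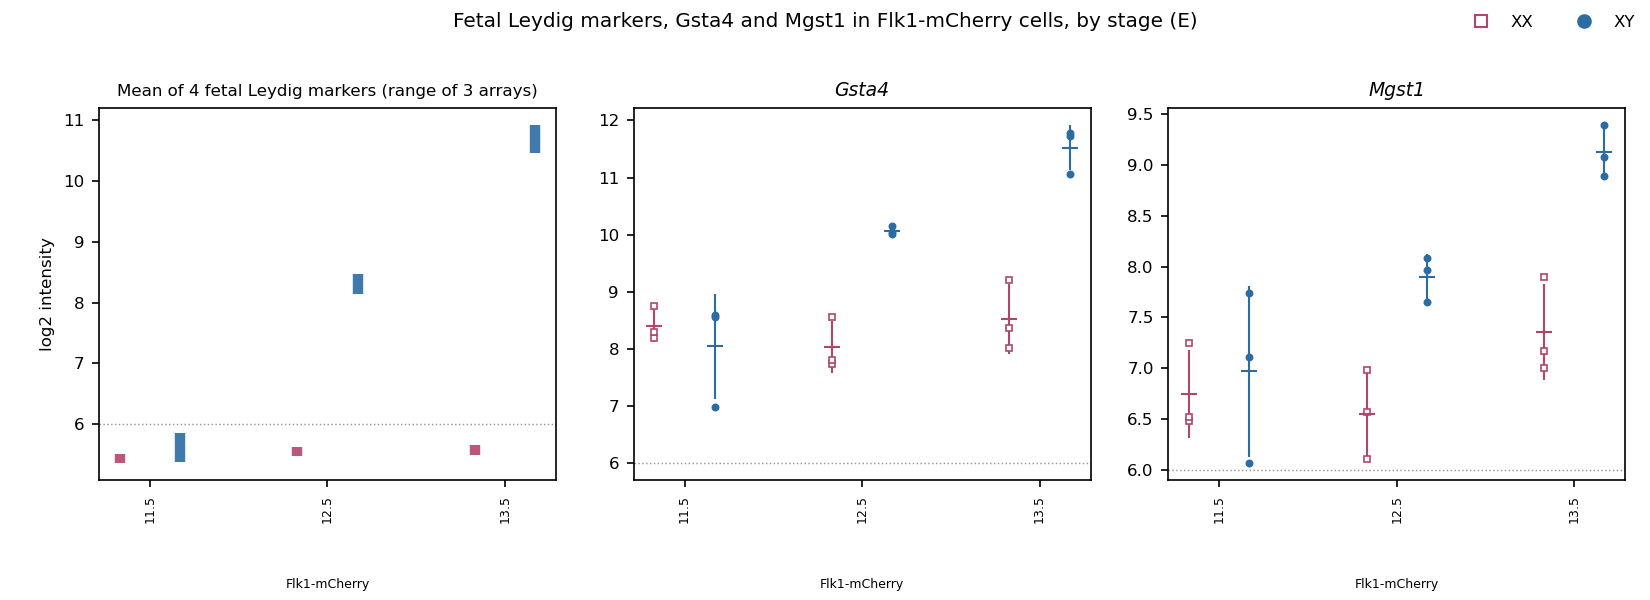
Left, the mean log2 intensity of 4 fetal Leydig markers per array, shown as the range over 3 arrays, and middle and right, *Gsta4* and *Mgst1* on each array (log2 intensity, dashes at the mean, bars for 1 SD), by stage (horizontal axis) in *Flk1-mCherry* cells; squares are XX and circles XY. In XY cells all 3 climb with stage, and in XX cells the marker mean stays under 6.

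Changes from E11.5 to E13.5 within a sex were called for 6 of the 9 genes. Of the 8 genes other than *Slc7a11*, 2 were called in XX supporting cells (7.2% of all clusters) and 2 in XY supporting cells (11.9%), in both cases *Mgst3* and *Gsta3*. The XX rise of *Gsta3* was 0.70 (adjusted p = 0.046) and was not called without array 2 or 3 of E11.5 or array 1 or 3 of E13.5 (0.59 to 0.64). In germ cells 3 were called in XX (14.9%), *Gsta3*, *Gsta4* and *Gpx3*, and 2 in XY (9.63%), *Mgst2* and *Gsta4*. In *Flk1-mCherry* cells 2 were called in XX (2.47%), *Gsta3* and *Gpx3*, and 5 in XY (6.85%), where *Gsta4* rose 11.2-fold (adjusted p = 1.0e-17), *Mgst1* 4.44-fold (adjusted p = 4.6e-09), *Gsta3* 3.06-fold (adjusted p = 1.3e-06) and *Mgst2* 2.97-fold (adjusted p = 2.7e-04). The XX rise of *Gsta3* in these cells was 0.89 (adjusted p = 0.021) and was lost without any of the E11.5 arrays (0.86 to 0.92) or without array 1 (0.73) or 3 (0.80) of E13.5.

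Between lineages, *Slc7a11* and *Mgst2* left out, 5 of 7 genes were called in supporting cells against the rest (13.5% of all clusters), 4 in germ cells (27.8%) and 3 in *Flk1-mCherry* cells (15.9%). Within the germ cell contrast the 9 genes spread widely, from -3.76 for *Mgst1* to 2.46 for *Gclc*. Averaged over sexes and stages, *Flk1-mCherry* cells had the lowest *Gsta4*, 3.47-fold below the others (adjusted p = 1.7e-27), and a 1.70-fold lower *Mgst1*. The *Gsta4* arrays of the lineages overlap. At E13.5 XY *Flk1-mCherry* cells averaged 11.5, above XX supporting cells (10.6) and germ cells of both sexes (at most 9.87), and below XY supporting cells (12.1). A comparison with XX groups only was added after the data were seen and leaves out the XY cells with Leydig markers. There the log2 differences were -2.37 in place of -1.80 for *Gsta4* and -1.23 in place of -0.77 for *Mgst1*.

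A change of the sex difference between E11.5 and E13.5 was called 7 times in 5 genes, *Slc7a11* in supporting cells left out: 3 in supporting cells (11% of all clusters), 1 in germ cells (7.84%) and 3 in *Flk1-mCherry* cells (2.39%). In all 7 the XY level gained on the XX level. Those in supporting cells subtract the E11.5 difference, a comparison used in choosing the genes, so their p-values are a description only. For *Slc7a11* in supporting cells the value was 1.34, a smaller XX excess at E13.5, given without a test because it uses the arrays that chose the gene.

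The wider pathway was read from 79 further genes, of which 69 could be tested. *Ggt1*, *Gsta1*, *Gsta2*, *Gstp2*, *Prdx5* and *Prdx6* were not analysed here, and *Gpx5*, *Gpx6* and *Nqo1* did not pass the limit on low values. In supporting cells 11 were called higher and 4 lower in XY at E12.5 (21.7% of 69, median log2 difference 0.01) and 10 and 5 at E13.5 (21.7%, median 0.06), beside 16.6% and 16% of all clusters with medians of 0.00 and -0.03. The mu-class transferases led: *Gstm7* was 6.91-fold higher in XY at E12.5 (11.13 against 8.34, adjusted p = 6.6e-18), *Gstm6* 4.63-fold (9.60 against 7.39, adjusted p = 1.3e-06) and *Gstm1* 3.44-fold (11.81 against 10.03, adjusted p = 1.0e-06). These genes are close copies that lie in 1 cluster on the chromosome, and their probes may read one another. At E13.5 *Prdx4*, a peroxiredoxin of the endoplasmic reticulum, was 2.59-fold higher in XY (adjusted p = 8.5e-06), and *Cth*, which makes cysteine from cystathionine, was 2.48-fold lower (6.43 against 7.74, adjusted p = 1.9e-07).

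Germ cells of E13.5 had 10 called higher and 3 lower in XY (18.8% of 69), led by *Shmt2*, which makes glycine in mitochondria (9.79 against 8.44, 2.55-fold, adjusted p = 2.9e-11), *Gstm2* (7.99 against 6.83, 2.23-fold, adjusted p = 0.012) and *Gstp1* (9.53 against 10.63, 2.15-fold lower, adjusted p = 6.7e-04). In *Flk1-mCherry* cells 4 of 69 were called at E13.5, all higher in XY. *Gstm1* (2.08-fold, adjusted p = 0.015), *Prdx3* (2.04-fold, adjusted p = 0.0033) and *Gstm7* (1.75-fold, adjusted p = 0.0044) led them.

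Of the regulators, *Nfe2l2* had group means between 8.81 (XY germ cells, E13.5) and 10.3 (XX supporting cells, E11.5) and was called only in the change of the sex difference in supporting cells (0.93, adjusted p = 0.044). *Keap1*, which holds *Nfe2l2* in check, lay between 7.10 and 7.67 and was called in no comparison. The median log2 difference of the 69 genes was 0.03 in supporting cells at E11.5, 0.13 in germ cells at E13.5 and 0.07 in *Flk1-mCherry* cells at E13.5, beside 0.00, 0.02 and -0.01 over all clusters.

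The profiles of the 9 genes over the 24 group means of the fit were of several kinds. The genes most like *Mgst2* were *Hesx1*, *Lefty1* and *1700024G13Rik*, at Pearson correlations of 0.908, 0.908 and 0.904. Those most like *Slc7a11* were *Vmn1r35* (0.984), *Slitrk1* (0.956) and *Ppara* (0.956). For *Gclc* they were *Nmd3*, *Cfap20dc* and *Cyct* (0.974, 0.973 and 0.970), and for *Gclm* *Tuba3a*, *Sall4* and *Rbm44* (0.973, 0.971 and 0.971). These correlations across groups share arrays, reporters and strains and are a description only. *Mgst1* was nearest to *Smarca1*, *Arxes2* and *Cpq* (0.985, 0.976 and 0.976) and ran against *Gclc* (-0.914) and *Gclm* (-0.892). The nearest to *Mgst3* were *Tmem86a*, *Cercam* and *Ero1b* (0.925, 0.916 and 0.916), to *Gsta3* *Defb19*, *Clu* and *Fkbp5* (0.884, 0.880 and 0.872), to *Gsta4* *Mlec*, *Man1a2* and *Akt2* (0.916, 0.895 and 0.871), and to *Gpx3* *Pimreg*, *Fam111a* and *Foxc2* (0.913, 0.894 and 0.893). Among the members the alpha-class genes *Gsta3* and *Gsta4* correlated at 0.681.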

How the data were processed

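RNA of sorted cells was hybridised to Affymetrix Mouse Gene ST arrays. The authors summarised probes by RMA in Partek (probe signals adjusted for sequence and GC, then quantile normalization and median polish) and deposited log2 intensities of 35557 transcript clusters on 91 arrays. The methods describe a normalization of all 91 arrays and one of 72, and which of them gave the deposited table is not stated in the sources used here. Array files were read with GCOS, per the labels. RMA evens out the arrays and narrows differences between weak signals. The array of a whole newborn mouse was not used. Median values per array were 6.56 to 6.81. Arrays carry no depth, and 3 per group limit the precision. The study names them biological replicates, from pools of one or more litters.

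Clusters that name 1 gene and exceeded 6 in at least 2 of 3 arrays of some group were kept, 16820 clusters for 15324 genes on 72 arrays. The authors' removal of cross-hybridising probes was not applied, so close paralogs may share signal. R 4.3.3 and limma 3.58.1 gave the two-sided tests (lmFit, eBayes), from a model of group means on 72 arrays in 24 groups, or on 90 for *αSma-EYFP* cells (15359 genes). P-values were adjusted by Benjamini-Hochberg, and a call needs an adjusted p under 0.05 and a fold over 1.5. Error terms after ± are standard errors of the fit unless SD is named. The methods compare with unadjusted p-values, which is an alternative here. 1 sorted population of the 72 arrays is not reported here, but its arrays stay in the fit, in the mean of the other lineages and in the 24 group means. The steps were tested on simulated data. The members, pathway genes and markers were chosen with earlier results of these data known. All members are named, and up to 3 called pathway genes with the largest difference in each comparison described, with *Slc3a2*, *Gss*, *Gsr*, *Nfe2l2*, *Keap1*, *Ggt1* and *Chac1* named whatever their values. The 3 genes with the highest correlation to each member over the 24 group means are named as most alike. Promoters come from RefSeq, and the array's genome build was not used.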

Additional observations from a re-analysis of the deposited data

Results flagged for a closer look

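In 7 cases the XY minus XX difference at E13.5 differed from that at E11.5 by the limma interaction test (adjusted p under 0.05 and a fold over 1.5), all toward a higher XY level. In *Flk1-mCherry* cells the log2 change was 3.36 for *Gsta4* (adjusted p = 3.8e-11), 1.55 for *Mgst1* (adjusted p = 0.0069) and 1.71 for *Mgst2* (adjusted p = 0.020). That of *Mgst1* was 1.30 without XX array 2 and 1.09 without XY array 3 of E11.5 (adjusted p = 0.055 and 0.069). That of *Mgst2* was 1.64 and 1.57 without array 2 of XX or XY at E11.5 and 1.68 without XY array 1 of E13.5 (adjusted p = 0.057, 0.076 and 0.054), so neither call held without them. The mean of the fetal Leydig markers in XY *Flk1-mCherry* cells was 5.38 to 5.86 at E11.5 and 10.5 to 10.9 at E13.5, and its part was not tested.

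In germ cells the change was 3.68 for *Mgst2* (adjusted p = 1.4e-08), called without any 1 array. In supporting cells it was 1.20 for *Gsta3* (adjusted p = 0.011), 1.07 for *Gsta4* (adjusted p = 0.021) and 0.83 for *Gpx3* (adjusted p = 0.042). The reporter of XY supporting cells changed between these stages, so there it cannot be told apart from stage, nor at E13.5 from sex. All changes in supporting cells subtract the E11.5 sex difference, a comparison used in choosing the genes, so their p-values are a description only. The *Gpx3* value sits at the threshold, and its call was lost without any of the XX arrays of E11.5, XY array 2 or 3 of E11.5, XX array 1 or 3 of E13.5 or XY array 2 of E13.5, with values of 0.65 to 0.85.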

How the results depend on the processing

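Leaving out the values given without a test, 44 of 55 member calls were kept under every alternative fixed at the start, leaving out single arrays included. Without 1 array the calls numbered 17 to 19 in the sex comparisons (18 with all arrays), 15 to 17 in the stage comparisons (16), 12 in the lineage comparisons (12), 5 to 7 in the sex by stage changes (7) and 2 to 3 in *αSma-EYFP* cells (2). Without the fold limit 21 lineage comparisons were called, and with the unadjusted p-values of the methods 4 *αSma-EYFP* comparisons. With XX groups only, *Mgst2* in germ cells against other lineages was -0.15 in place of 1.19. Quantile normalization, median centring, other limits on low values, array weights, a trended variance, 90 arrays in the fit and the 6 arrays compared moved no count of calls by over 1.5 times. Single calls were lost all the same. Fitted on the 6 arrays compared alone, *Mgst3* in supporting cells at E12.5 (adjusted p = 0.12) and *Gsta3* in *Flk1-mCherry* cells at E13.5 (0.18) were not called. The rise of *Gsta3* in XX supporting cells was not called after quantile normalization (0.65), median centring (0.62) or without the limit on low values (adjusted p = 0.058). Without that limit the change of the *Gpx3* sex difference in supporting cells had an adjusted p of 0.051, and with array weights that of *Mgst2* in *Flk1-mCherry* cells had 0.050. Each member has 1 cluster, so another cluster could not be tried. Same-numbered XX and XY arrays share only a number: in 1 of 12 sets all 3 pairs correlated over 0.1 (range -0.31 to 0.36), in 2 sets every array correlated best with its own number, and a replicate block left 18 sex and 2 *αSma-EYFP* calls. Levels under 6, as for *Slc7a11* outside XX supporting cells and *Mgst1* in germ cells, are near the floor of the arrays, and folds against them depend on it.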
